A study of Mus musculus with 2 samples.

Results

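The genes described here are the potassium channel genes, taken as every gene whose symbol is Kcn followed by letters and a closing number and which has a protein-coding transcript. The rule used names and annotation, not levels, and found 92 genes among the 55536 annotated genes of the series and the 22028 protein-coding ones. Of these, 77 belong to classes whose members line the pore and 15 to classes of auxiliary subunits. The libraries are total RNA-seq of gastrocnemius, a calf muscle rich in fast fibres, from 2 mice, both B6Cast F1 males 25 days old. All samples form 1 group with 1 library per animal, no treatment is given in the labels, and nothing was compared between conditions. The gastrocnemius was sequenced whole, so every level is an average over fibres, vessels, nerve and connective tissue, and reads of both parental genomes of the cross are counted together.

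Potassium channels let potassium ions leave the cell down their gradient, which sets the resting potential and ends the action potential. In the muscle fibre, inward rectifiers hold the resting potential and take potassium back up from the transverse tubules, voltage-gated channels repolarize the membrane, and ATP-sensitive channels open when energy runs low. Auxiliary subunits do not conduct but change the gating or trafficking of the pore subunits. Pore subunits share a selectivity filter, a short loop whose backbone strips water from the potassium ion. Its usual core is glycine, tyrosine or phenylalanine, glycine.

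The filter is common to the pore classes and not to the auxiliary ones. Its coding bases are shown for the most abundant member of 5 pore classes, and for 3 further members whose levels are discussed. TPM is a transcript's share of the library, corrected for length and scaled to a fixed total. Each window is 36 bases of the annotated coding strand, 5′ to 3′, with the filter core of 4 codons in capitals, and is placed on mm10. The sequences are those of the GENCODE M21 transcripts, on the reference strain.
Kcnc4 (chr3:107447784-107447819, minus strand): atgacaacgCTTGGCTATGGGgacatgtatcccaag
Kcna7 (chr7:45409455-45409490, plus strand): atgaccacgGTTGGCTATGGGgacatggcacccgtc
Kcng4 (chr8:119625895-119625930, minus strand): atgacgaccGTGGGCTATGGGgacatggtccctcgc
Kcnma1 (chr14:23528398-23528433, minus strand): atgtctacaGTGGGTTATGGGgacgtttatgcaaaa
Kcnn1 (chr8:70850642-70850677, minus strand): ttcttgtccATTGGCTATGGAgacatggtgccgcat
Kcnj2 (chr11:111072201-111072236, plus strand): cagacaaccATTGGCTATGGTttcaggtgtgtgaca
Kcnj11 (chr7:46099481-46099516, minus strand): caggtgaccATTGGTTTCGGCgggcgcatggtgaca
Kcnj8 (chr6:142566433-142566468, minus strand): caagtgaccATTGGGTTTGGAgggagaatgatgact

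In frame and on the coding strand, the tyrosine form of the core is written NTNGGNTANGGN and the phenylalanine form NTNGGNTTNGGN, which also takes in some leucine codons. The forms differ at 1 base, so the same stretch of bases cannot match both, but a gene can hold both. At least 1 of them stood in the longest annotated coding sequence of 75 of 77 genes of the pore classes, of 0 of 15 auxiliary genes, and of 5.29% of the 21901 protein-coding genes searched. The tyrosine form, with or without the other, was held by 59 of the 77 and by 1.63% of all. Kcnk1 and Kcnk7, of the tandem-pore class, were the genes of the pore classes without a match, which says only that these letters are not in their coding sequence. Among the 15 inward rectifiers, 13 carried the tyrosine form, and the phenylalanine form stood in Kcnj11 and Kcnj8, the pore subunits of ATP-sensitive channels. All 8 members of the EAG, ERG and ELK class carried the phenylalanine form. Of the 36 bases of the Kcnc4 window, Kcnc1 shared 31, Kcna7 28, Kcnma1 25, Kcnj2 22 and Kcnj11 12.

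Of the 92 genes, 18 had 1 TPM or more in both animals and are called detected. That is 19.6% of them, against 45.2% of all protein-coding genes. Of the pore classes 17 genes were detected, and of the auxiliary classes 1. Among the 74 others, 58 had at least 1 count in a library and 16 had none in either. The summed TPM of all 92 genes was 197 in animal 1 and 229 in animal 2. The 7 most abundant genes held 77.5% of it in animal 1 and 76.1% in animal 2. No potassium channel gene was among the most abundant messages of the muscle, since the highest of them, Kcnc4, was number 1190 of the protein-coding genes by mean TPM. The median detected member stood at 4.69 TPM (animal 1) and 5.98 TPM (animal 2), below the median detected protein-coding gene at 6.56 TPM (animal 1) and 7.07 TPM (animal 2).

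**Figure D1:**
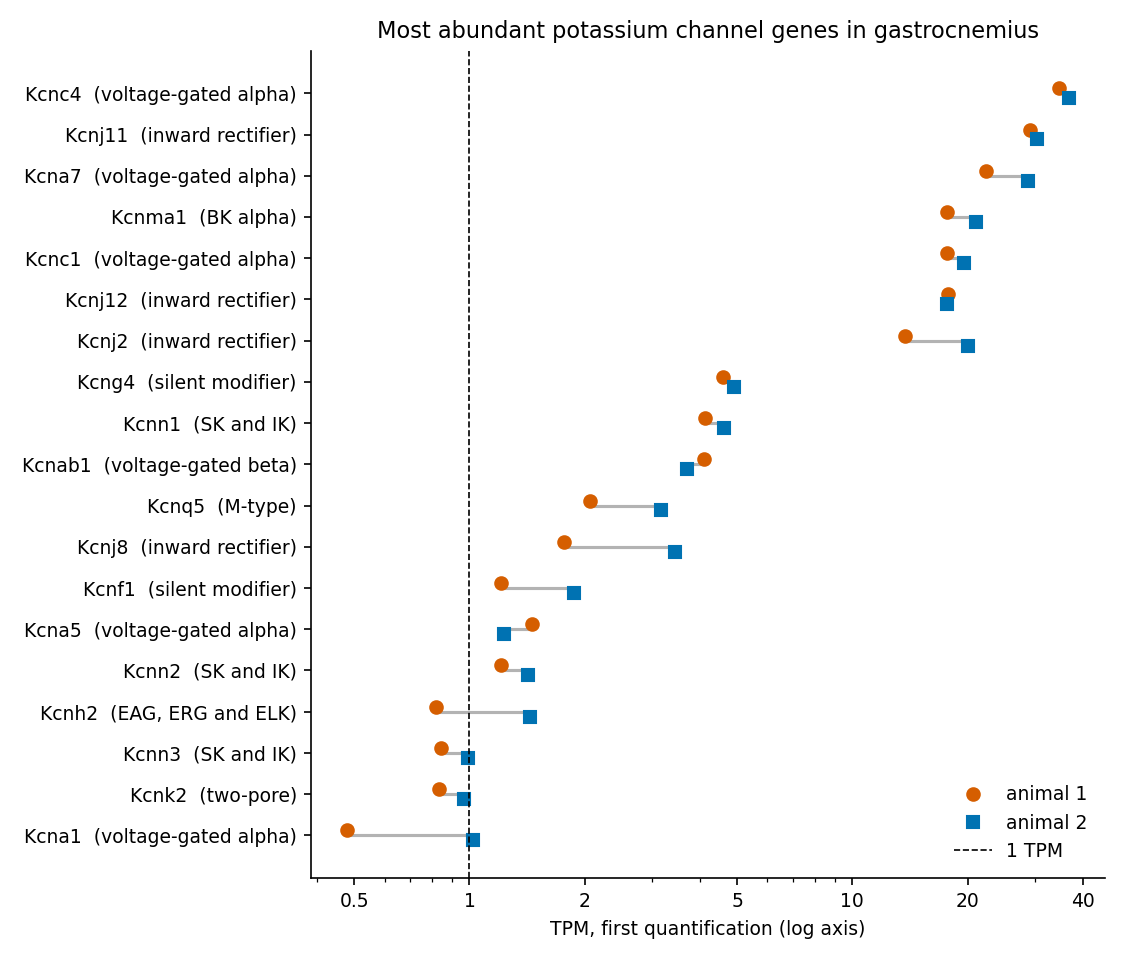
TPM (log axis) of 19 of the most abundant potassium channel genes, highest first, in animal 1 (circles) and animal 2 (squares), with the class of each gene and a dashed line at 1 TPM. Of these genes, 7 lie at 13.7 TPM or more in both animals, and Kcnh2 and Kcna1 pass 1 TPM in animal 2 alone.

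Voltage-gated alpha subunits, which open on depolarization, took the largest part of the family. Their 17 members held 44.2% ± 0.0459 (SD, n = 2) of the summed TPM, and 6 were detected. Kcnc4, which encodes Kv3.4 (chromosome 3, 107438303 to 107459552), was the highest of all members, at 34.7 TPM in animal 1 and 36.7 in animal 2. Kcna7, encoding Kv1.7, a channel known from muscle and heart (chromosome 7, 45405653 to 45409763), stood at 22.3 TPM in animal 1 and 28.8 in animal 2. Both animals therefore had Kcnc4 above Kcna7. Kcnc1, encoding the fast Kv3.1, had 17.6 and 19.6 TPM in animals 1 and 2, and the ratio of Kcnc4 to Kcnc1 was 1.97 and 1.88. Kcna5, encoding Kv1.5, was just above the threshold, at 1.46 TPM in animal 1 and 1.23 in animal 2. The other 11 members of the class were not detected, and each had at least 1 count. They included the Kv4 genes Kcnd1, Kcnd2 and Kcnd3, of which none exceeded 0.10 TPM in either animal.

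Silent modifiers do not form channels on their own in expression systems and join other Kv subunits instead. Kcng4, encoding Kv6.4, stood at 4.60 TPM in animal 1 and 4.92 in animal 2. Kcnf1, encoding Kv5.1, had 1.21 TPM in animal 1 and 1.88 in animal 2. The class of 10 genes held 3.48% ± 0.101 (SD, n = 2) of the family, and its other 8 genes were not detected. Kv beta subunits bind the inner face of Kv1 channels, and Kcnab1 was the detected auxiliary gene, at 4.09 TPM in animal 1 and 3.71 in animal 2. Kcnab2 had 28 and 39 counts, with 0.33 TPM in animal 1 and 0.85 in animal 2, and its exons overlap Gm16334 on the same strand.

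Inward rectifiers followed with 31.6% ± 0.233 (SD, n = 2) of the summed TPM, from 4 detected genes of 15. Kcnj11, encoding Kir6.2 (chromosome 7, 46093953 to 46100764), had 29.1 TPM in animal 1 and 30.3 in animal 2. Kcnj12, encoding the strong rectifier Kir2.2, had 17.8 TPM in animal 1 and 17.6 in animal 2. Kcnj2, encoding Kir2.1, whose human gene is mutated in periodic paralysis of the Andersen-Tawil type, stood at 13.7 TPM in animal 1 and 20.1 in animal 2. These Kir2 genes therefore had no common order, with a ratio of Kcnj12 to Kcnj2 of 1.29 in animal 1 and 0.879 in animal 2. Kcnj8, encoding Kir6.1 of vessel walls, was lower, at 1.77 TPM in animal 1 and 3.45 in animal 2. None of the other 11 exceeded 0.20 TPM, and Kcnj1, Kcnj5 and Kcnj16 had 0 counts.

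ATP-sensitive channels need a sulfonylurea receptor, and the 2 receptor genes lie beside the 2 pore genes. Abcc8 lies 3.76 kb from Kcnj11 on chromosome 7, and Abcc9 16.2 kb from Kcnj8 on chromosome 6. The levels did not go by neighbourhood. Abcc9, the receptor of muscle and vessels, had 46.6 TPM in animal 1 and 50.3 in animal 2, whereas Abcc8, the receptor of the pancreatic beta cell, had 1.40 and 1.28 TPM. Kcnj11 thus stood at 20.8 and 23.7 times its neighbour Abcc8 in animals 1 and 2, and Kcnj8 at 0.038 and 0.0686 times its neighbour Abcc9. Against Abcc9, Kcnj11 stood at 0.625 in animal 1 and 0.603 in animal 2.

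**Figure D2:**
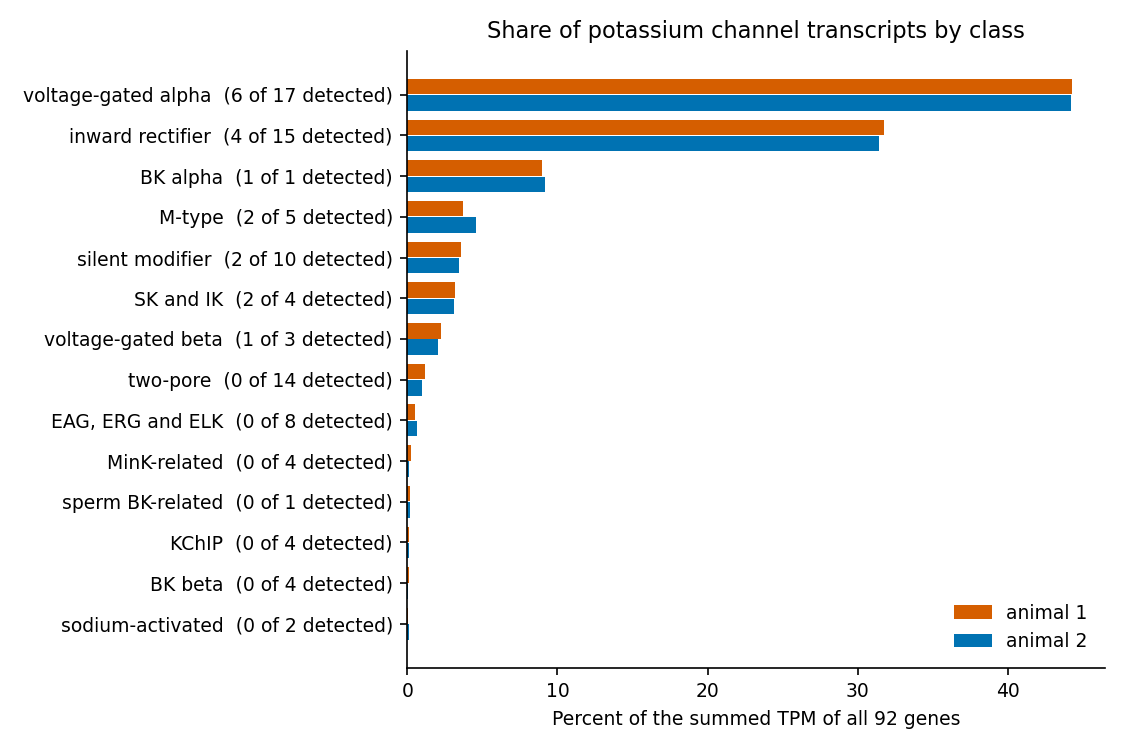
Percent of the summed TPM of all 92 potassium channel genes taken by each of 14 classes, in animal 1 (upper bar) and animal 2 (lower bar), with the number of detected members. Voltage-gated alpha subunits and inward rectifiers lead in both animals, at 44.3% and 31.8% in animal 1 and 44.2% and 31.4% in animal 2.

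Calcium-activated channels were led by Kcnma1, the pore gene of the BK channel, which opens on calcium and depolarization together. Kcnma1 had 17.6 TPM in animal 1 and 21 TPM in animal 2. It made up 9.06% ± 0.169 (SD, n = 2) of the family. Its beta subunits were near the floor. Kcnmb1, the beta subunit of smooth muscle, had 7 counts in animal 1 and 2 in animal 2, and none of the 4 beta genes exceeded 0.09 TPM. Among the BK gamma genes, which carry Lrrc symbols and fall outside the naming rule, Lrrc38 had 9.35 and 8.87 TPM and Lrrc52 1.56 and 1.66 TPM in animals 1 and 2. Lrrc55 stood below 1 TPM and Lrrc26 had 1 count in each library. Small-conductance channels, which open on calcium through bound calmodulin, were led by Kcnn1 at 4.13 TPM in animal 1 and 4.61 in animal 2. Kcnn2 had 1.21 and 1.42 TPM, and Kcnn3, whose product is known to appear in denervated muscle, had 0.84 and 0.99 TPM, just under the threshold in both animals.

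M-type genes encode slow Kv7 channels that hold excitability down. Of the 5 genes, 2 were detected. Kcnq5 had 2.07 TPM in animal 1 and 3.16 in animal 2, whereas Kcnq1 and Kcnq3 were not detected, with at most 0.33 TPM. The class held 4.14% ± 0.604 (SD, n = 2) of the family.

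Background leak channels of the tandem-pore class were the largest class without a detected gene. Of their 14 genes 8 had a count, and Kcnk2, which encodes the stretch-sensitive TREK-1, was highest at 0.83 TPM in animal 1 and 0.97 in animal 2. Kcnk5, known as an acid-sensitive leak channel, had 0.12 and 0.11 TPM. In the EAG, ERG and ELK class, Kcnh2, the ERG gene of cardiac repolarization, had 0.82 TPM (animal 1) and 1.44 TPM (animal 2). The other 7 genes of the class did not exceed 0.07 TPM. The sodium-activated genes Kcnt1 and Kcnt2 reached at most 0.16 TPM. Kcnu1, which encodes the sperm channel related to BK, had 11 and 12 counts.

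KChIP and MinK-related genes were low throughout. Kcne3, described as a partner of Kv3.4 in skeletal muscle, had 4 counts in animal 1 and 0 in animal 2, where 0 counts allow up to 3 counts, or 0.0802 CPM (counts scaled to the library total). Kcne1 had 1 count in animal 1 and 0 in animal 2, Kcne2 had none, and Kcne4 was highest of the class at 0.27 and 0.23 TPM. The KChIP genes, cytosolic partners of Kv4, had at most 0.11 TPM, and the Kv4 partner Dpp6 had 0.18 and 0.16 TPM. Dpp10, another Kv4 partner, had 0 and 2 counts, and the regulator Kcnrg had 4 and 5. The genes with 0 counts in both libraries were Kcne2, Kcnh4, Kcnh6, Kcnh8, Kcnip1, Kcnj1, Kcnj5, Kcnj16, Kcnk9, Kcnk10, Kcnk12, Kcnk15, Kcnk16, Kcnk18, Kcns2 and Kcnv1. At the depth of 35098487 expected counts in animal 1 and 37428588 in animal 2, 0 counts allow up to 0.0855 and 0.0802 CPM, and such intervals and floors cover counting error only.

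Around the threshold, Kcnn2 and Kcna5 lay just inside, and Kcnh2 and Kcnn3 just outside. Animal 2 alone had 1 TPM or more for Kcnh2 and for Kcna1 (0.48 TPM in animal 1 and 1.02 in animal 2). No gene passed in animal 1 alone.

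By position, members within 200 kb of each other made 10 neighbouring combinations, and none had both genes detected. Since only 18 of the 92 members were detected, few combinations would hold 2 detected genes whatever their positions. Detected members farther apart on 1 chromosome, such as Kcnj11 and Kcnc1 on chromosome 7, fall outside this limit. Kcnj2 (13.7 and 20.1 TPM) and Kcnj16 (0 counts), 38.2 kb apart on chromosome 11, differed most in level. Kcna5, Kcna1 and Kcna6, next to each other on chromosome 6, had 1.46, 0.48 and 0.15 TPM in animal 1 and 1.23, 1.02 and 0.19 TPM in animal 2.

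A second quantification was deposited for each library, and its transcript values were summed to genes. Its TPM were higher for most genes, with a median log2 ratio of second over first of 0.51 over 9930 detected protein-coding genes. Relative to that median, all 18 detected members agreed within 2-fold, as did 98.4% of detected protein-coding genes. The 18 members also agreed within 1.5-fold, a limit at which the share over all genes was not computed. Kcnab1 lay 0.22 above the median on the log2 scale. Kcnc4 had 46.8 TPM in animal 1 and 49.9 in animal 2 there, and Kcnj11 38.8 and 42.0 TPM. Kcna7 had 33.4 TPM in animal 1 and 43.5 in animal 2 there, and so stood above Kcnj11 in animal 2, unlike in the first quantification. Genes with few counts scattered more. By the second quantification Kcnmb4 had 0.41 TPM (animal 1) and 0.842 TPM (animal 2), but by the first 0.08 and 0.09 TPM.

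**Figure D3:**
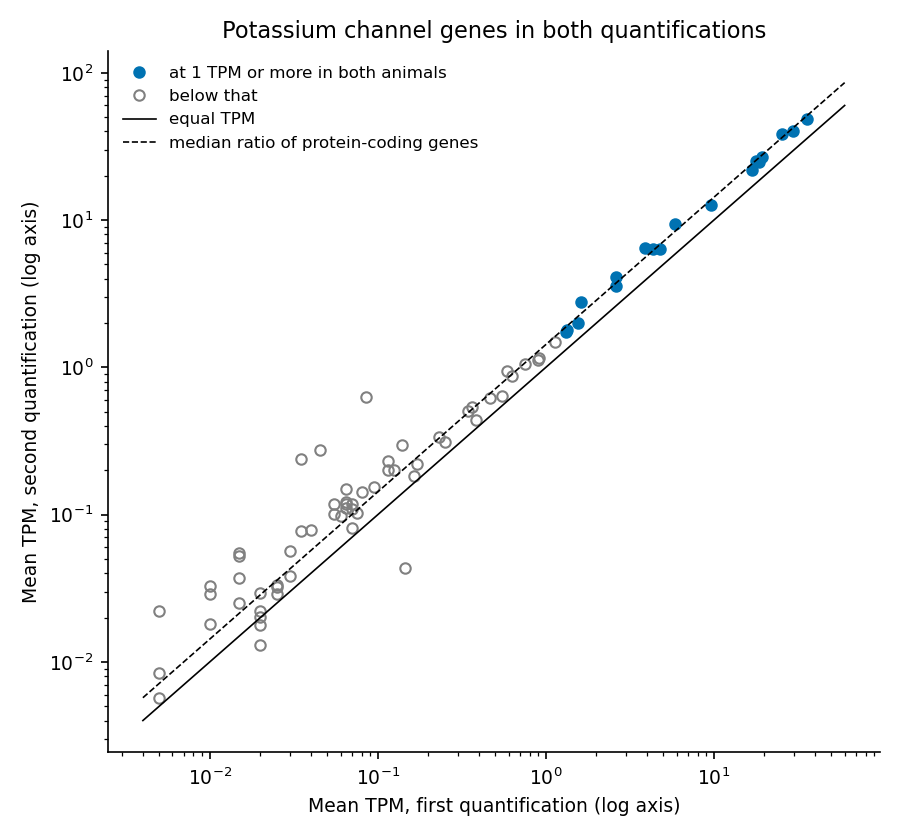
Mean TPM of each potassium channel gene in the second quantification (y, log axis) against the first (x, log axis), for genes above 0 in both. Filled points are the 18 detected genes, which follow the dashed line of the median ratio of protein-coding genes, 0.51 on the log2 scale, while genes below about 0.1 TPM scatter around it.

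Reads shared with other genes touched few of the most abundant members. Of the 31-base words in the main transcript of Kcnj11, Kcna7, Kcng4, Kcnj8 and Kcnf1, 0 occurred in a transcript of another gene on either strand. The share was 0.385% for Kcnc4, 1.58% for Kcnc1 and 1.68% for Kcnma1. It reached 15.7% for Kcnn2 and 4.31% for Kcna5, whose words also occur in Kcna6 and the antisense Gm26673. Exons of 7 detected members overlap an annotated gene on the other strand. Whether strand was used in counting is not given in the sources used here, so reads of such neighbours cannot be told apart with certainty.

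Single transcripts accounted for most of the signal at some genes and not at others. Kcnc4, Kcna7 and Kcnj2 have 1 annotated transcript each. Kcnj11-205 took 94.2% of Kcnj11 in animal 1 and 93.7% in animal 2, and Kcnj12-202 took 94.0% and 96.7% of Kcnj12. At Kcnc1, Kcnc1-201 took 78.9% and 80.5%, with 78.4% and 79.7% in the second quantification, and Kcnc1-203 took 21.1% and 19.5% in the first. Kcnma1 has 38 annotated transcripts, the most among the members at 2 TPM or more. Kcnma1-235 led in both animals and both quantifications, with 41.1% (animal 1) and 45.2% (animal 2) by the first and 32.5% and 38.8% by the second. Kcnma1-205 took 16.2% and 19.3%. Kcnab1-201, the leading transcript of Kcnab1 and protein-coding, took 50.7% (animal 1) and 54.6% (animal 2) by the first quantification. By the second it took 38.5% and 27.8%. Much of the rest of Kcnab1 went to transcripts not annotated as protein-coding. Of the 6 members at 5 TPM or more with several transcripts, 5 had the same leading transcript in both animals.

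**Figure D4:**
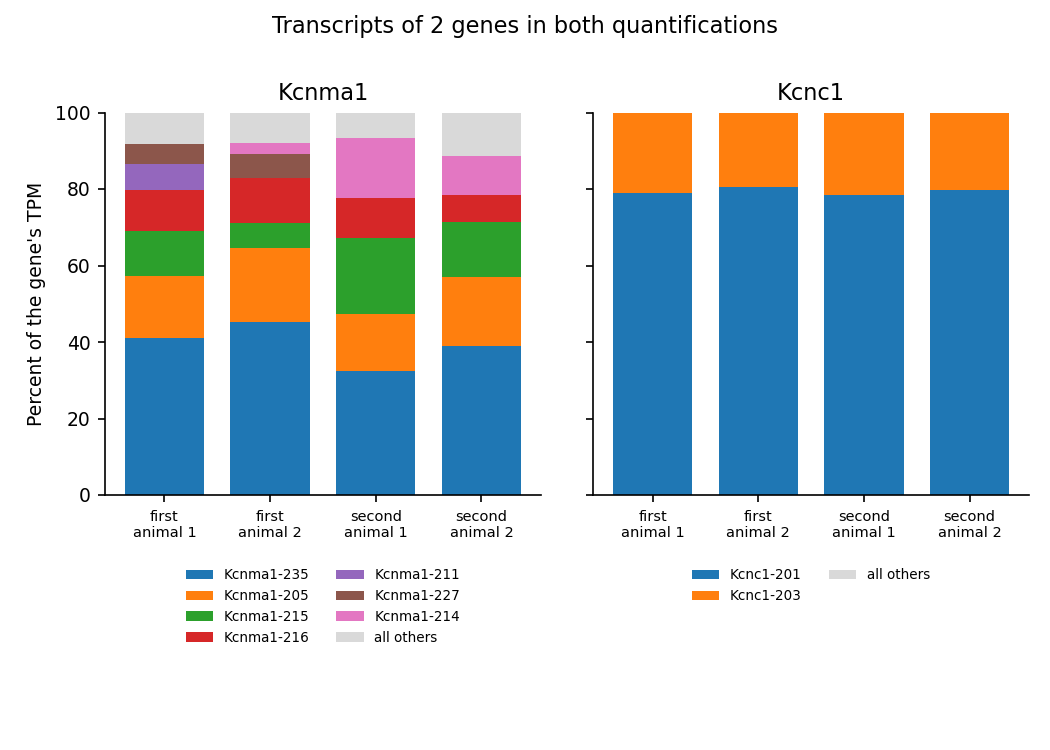
Percent of the TPM of Kcnma1 and Kcnc1 taken by each named transcript, stacked, in the first and second quantification of animals 1 and 2. Kcnc1 is split alike in all 4 bars, with Kcnc1-201 at 78.4% to 80.5%, whereas Kcnma1 is spread over several transcripts whose smaller shares differ between quantifications.

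The animals were then compared as libraries. Expected counts were rounded and scaled by TMM, and genes reaching 20 counts over both libraries, 14754 in all, were tested. The test was a two-sided exact binomial test conditional on each gene's total, and its p-values were adjusted by Benjamini-Hochberg over all of them. It sets one library against the other and takes in sampling error only. At an adjusted p under 0.05 and over 2-fold, 0 of the 38 potassium channel genes tested were called, against 1.74% of all genes (0.752% lower and 0.983% higher in animal 1). By adjusted p alone, 8 of the 38 were lower in animal 1 and 0 were higher, where 6.49% of all genes tested were lower and 7.59% higher. Over the 18 detected members the median log2 ratio, animal 1 over animal 2, was -0.15, and 11 had a negative ratio. That median was -0.07 in the second quantification, -0.24 by the ratio of TPM and -0.26 with library totals. For all detected protein-coding genes the median was -0.0013, and 50.4% had a negative ratio. The ratio of TPM shifts every gene, with a median log2 of -0.12 over detected protein-coding genes, and 15 of the 18 members were below 0 by it.

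**Figure D5:**
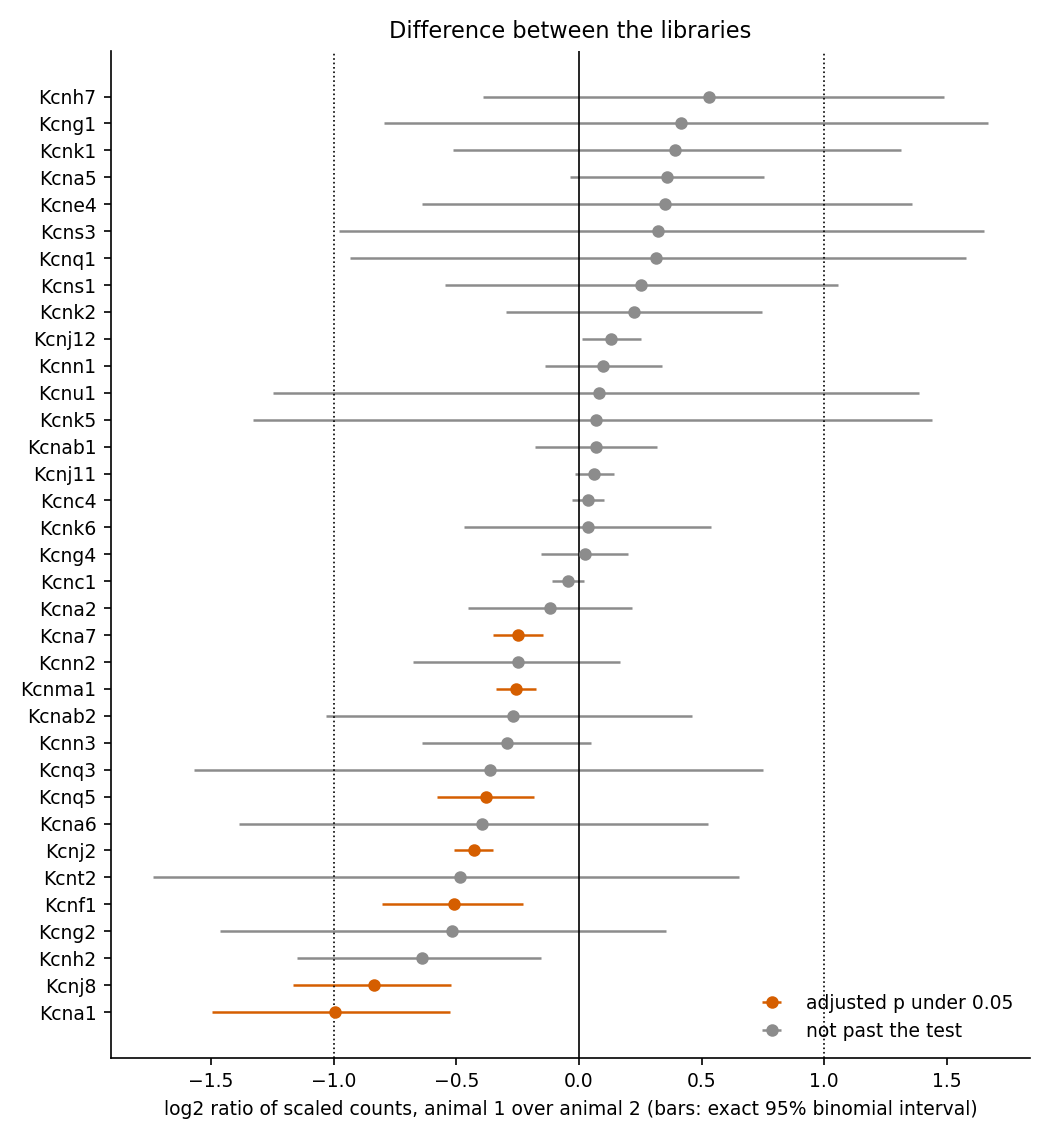
Log2 ratio of scaled counts, animal 1 over animal 2, for 35 of the potassium channel genes tested, with exact 95% binomial intervals (counting error only). The 7 genes past the adjusted p (coloured) all lie left of 0, and Kcna1, at -0.99, lies just inside the dotted 2-fold line.

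Kcnj2 had 2115 counts in animal 1 and 3276 in animal 2. Its log2 ratio was -0.43 (95% interval -0.51 to -0.35), with an adjusted p of 4.99e-25 by the exact binomial test. Kcnj12, the paralog of Kcnj2, had 1128 and 1184 counts and a ratio of 0.13 that did not pass (adjusted p = 0.141, exact binomial test). Kcnma1 (-0.26), Kcna7 (-0.25) and Kcnq5 (-0.38) were lower in animal 1 with adjusted p of 0.00166 or less by the same exact test. Kcnc4 and Kcnj11, the most abundant members, had ratios of 0.04 and 0.06, with 95% intervals of -0.03 to 0.10 and -0.02 to 0.14. The silent modifier Kcnf1 had -0.51.

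The largest differences among the potassium channel genes tested were at Kcna1 and Kcnj8. Kcna1 encodes Kv1.1, which sits beside the nodes of myelinated axons, and had 53 counts in animal 1 and 122 in animal 2, a log2 ratio of -0.99 (95% interval -1.49 to -0.52). Kcnj8 had 121 counts in animal 1 and 249 in animal 2, a ratio of -0.84 (-1.16 to -0.52). In bulk tissue, fewer cells of a type and less RNA per cell cannot be told apart. The 6 Schwann cell markers summed to 54.1 TPM in animal 1 and 109 in animal 2, all 6 had a lower ratio in animal 1, and 4 passed the adjusted p. The 6 neuron markers summed to 0.54 and 0.58 TPM, with Chat at 0 counts. Of the 6 mural cell markers, which stand for the cells of vessel walls, 4 were lower in animal 1 past the adjusted p, and their sum was 87.3 TPM in animal 1 and 109 in animal 2. The part of these cells in the ratios of Kcna1 and Kcnj8 was not tested.

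The other marker lists place the tissue. The 6 muscle fibre markers summed to 79780 TPM in animal 1 and 78825 in animal 2, with 5 of 6 higher in animal 1 past the adjusted p. The 6 cardiac markers summed to 60.9 TPM in animal 1 and 80.7 in animal 2, nearly all of it Myh6, a heart myosin gene, at 58.5 and 78.2 TPM. The level of Myh6 depended on the quantification. By the second it had 26.8 TPM in animal 1 and 33.9 in animal 2, although most genes were higher there. Tnnt2 had 2.28 and 2.41 TPM, and Nppa, Myl7 and Nkx2-5 had 0 counts in both. Endothelial markers summed to 53.7 and 62.3 TPM, macrophage markers to 28.8 and 31.5, and satellite cell markers to 12.1 and 14.0. Fibroblast markers summed to 1257 TPM in animal 1 and 852 in animal 2, of which Col1a1 alone made 864 and 469 TPM, with 5 of 6 higher in animal 1 past the adjusted p.

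Of the 21 partner genes that work with these channels or set the membrane potential with them, 12 were detected. By adjusted p of the exact binomial test, 6 of the 16 tested were lower in animal 1 and 2 higher, where 6.49% of all genes tested were lower and 7.59% higher. None of the 16 was called over 2-fold, against 1.74% of all genes. The sodium channel Scn4a, which starts the muscle action potential, had 117 TPM in animal 1, against 134 TPM in animal 2. The chloride channel Clcn1, which carries most of the resting conductance, had 42.8 TPM in animal 1 and 45.4 in animal 2. Each was above any single potassium channel gene in both animals. Tmem38a, a cation channel of the sarcoplasmic reticulum, had 467 TPM in both. Its log2 ratio of scaled counts was 0.11, higher in animal 1 past the adjusted p. Its relative Tmem38b had 16.9 TPM in animal 1 and 19.5 in animal 2. The sodium pump, which restores the potassium gradient, has beta subunits that differed in direction in the first quantification. Atp1b1 was lower in animal 1 (44.5 TPM, against 69.7 in animal 2, log2 ratio -0.59), and Atp1b2 was higher in animal 1 (153 TPM, against 143 in animal 2, 0.23). By TPM of the second quantification, Atp1b2 was lower in animal 1 (266 TPM, against 283 in animal 2). Its direction by TPM thus depended on the quantification, and its ratio of scaled counts in the second is not given here. Among pacemaker-type channels, Hcn4 had 0.24 TPM in animal 1 and 0.44 in animal 2, and Hcn2 and Hcn3 stayed at or under 0.28 TPM.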

How the data were processed

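Per the file headers, the authors deposited for each library a gene and a transcript table with expected counts, TPM, posterior mean TPM with its bounds and the percent of a gene taken by each transcript, in columns as RSEM writes them, and a second transcript table of estimated counts and TPM in columns as kallisto writes them. The accompanying descriptions name mm10 and GENCODE M21. The sources used here do not give the aligner or any tool version. The bounds, a signal in TPM units whose interval level the deposited headers do not give, were not used in any test. The labels number the tissues as different males of 1 donor entry.

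Genes were joined by identifier. TMM factors came from the genes tested, those reaching 20 counts over both libraries (edgeR 4.0.16 in R 4.3.3, ratios with a prior count of 0.5), and tests ran in scipy 1.17.1. With 1 library a side no quasi-likelihood fit is possible, and an exact test over the 2 animals, as opposed to over counts, allows no p under 0.5. The test was tried on simulated data for animal 1 over animal 2 (14754 genes), with changes given only to genes reaching 100 counts over both libraries. Every gene given a 3-fold change (100) or a 4-fold change (100) was recovered, and of the 14554 left unchanged 0 were called, under sampling error. Recovery of changed genes with fewer counts, or of changes nearer 2-fold, was not simulated.

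Members and lists were chosen with earlier results of these data known. Named were the 20 most abundant members, those past the library test, those at 0, those beside the threshold and a fixed set of known muscle channels, with the partner genes. Some of these genes and sequences are not reported here. Proteins were not used here. Alternatives were other thresholds, scalings, filters and the second quantification.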

Additional observations from a re-analysis of the deposited data

How the results depend on the processing

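Depth limits the low genes, since 54 of the 92 members had under 20 counts over both libraries and were not tested. The number of detected members was 18, with 8 at a threshold of 5 TPM and 23 at 0.5 TPM. It was 22 by posterior mean TPM, 20 in the second quantification and 18 to 20 when either replicate was left out. Some class shares moved by more than the SD between animals, but these values kept voltage-gated alpha subunits first and inward rectifiers second. In the second quantification the shares were 44.1% for voltage-gated alpha, 30.8% for inward rectifiers, 3.32% for silent modifiers and 2.51% for Kv beta. From posterior mean TPM they were 41.9% for voltage-gated alpha, 30.7% for inward rectifiers, 8.72% for BK alpha, 4.79% for M-type, 3.51% for SK and IK and 2.56% for Kv beta. Over detected members only they were 45.5% for voltage-gated alpha, 33.0% for inward rectifiers, 9.51% for BK alpha, 3.10% for silent modifiers, 2.80% for SK and IK and 1.94% for Kv beta. The shares over detected members leave undetected members out of both class and total, which by itself changes them. For the second quantification and posterior mean TPM the cause was not tested.

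Between the libraries, 0 members were called over 2-fold, but 1, Kcna1, with DESeq2 size factors, with library totals, in the second quantification and by the ratio of TPM, and also 1 with TMM factors from all genes, an alternative chosen after seeing the data. Its ratio lies at the 2-fold line. Over 1.5-fold there were 2 members called and 526 of all genes, and by adjusted p alone 8 members and 2078 of all genes, against 256 over 2-fold. Of those 256, 111 were lower in animal 1 and 145 higher. The ratio of TPM called its own set of 223 genes, 121 lower and 102 higher, and library totals one of 270, 160 lower and 110 higher. The same 8 members passed the adjusted p under each scaling, without the filter and in the second quantification, and Kcnh2 joined them with DESeq2 size factors (adjusted p = 0.0489), library totals (0.0115) and TMM factors from all genes (0.0481). With library totals, which leave a median log2 of -0.11 over detected protein-coding genes, 16 of 18 detected members had a negative ratio. Among members at 2 TPM or more, 10 of 11 kept 1 leading transcript. No paired analysis was possible because the series has 1 group.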
